A study of Bos taurus with 8 samples.

Results

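The miR-29 family was examined in the mammary gland of 4 Holstein-Friesian heifers, a dairy breed, and 4 Limousin heifers, a beef breed. Its members were taken as every array entry named bta-miR-29 with a letter from a to e, where bta stands for Bos taurus, and they were 5 of the 763 microRNAs (miRNAs) on the array: bta-miR-29a, bta-miR-29b, bta-miR-29c, bta-miR-29d and bta-miR-29e, written below without the prefix. An earlier database entry, miR-29b_v12.0, falls outside that naming and is described beside miR-29b. All animals were healthy and non-pregnant, aged 20 months by their characteristics and 2 years by the tissue protocol, and neither breed group carried a treatment. Tissue was taken from 1 section of the udder of each animal at slaughter, so that every value is an average over epithelium, stroma, fat, vessels and blood cells. In such tissue, fewer cells of a type and less RNA per cell cannot be told apart. The comparison asks how the miRNA content of the gland differs between a dairy and a beef breed before first calving.

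A miRNA is a short RNA that guides a silencing complex to messenger RNAs, mainly by pairing of its seed, the bases at positions 2 to 8, with the untranslated end of the messenger. The miR-29 family is best known as a repressor of matrix genes in mammals: collagen chains, elastin and fibrillin are established targets, and loss of miR-29 accompanies scarring in heart, liver and lung of mice and humans. In human cells DNA methyltransferases are further targets, and in human breast cancer cells miR-29b has been linked to the luminal state. The collagen messengers themselves were not measured on this array.

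The parts of the miRNAs that the longest probe of each entry pairs with are shown because the members differ by so few bases. They were obtained as the reverse complement of the probe sequences in the scanner files, 5′ to 3′, with the bases of the seed in capitals. Positions are counted from 1 at the first base of miR-29c, whose 22-base probe spans positions 1 to 22.
miR-29a, positions 3 to 22: GCACCAucugaaaucgguua
miR-29b, positions 3 to 23: GCACCAuuugaaaucaguguu
miR-29c, positions 1 to 22: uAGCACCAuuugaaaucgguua
miR-29d, positions 3 to 22: GCACCAuuugaaaucgauua
miR-29e, positions 4 to 24: CAUCAuuugaaaucaguguuu
Over the seed positions that their probes cover, miR-29a, miR-29b, miR-29c and miR-29d have the same seed bases. Taking miR-29c as the reference, miR-29a differs by 1 substitution, U10C, and miR-29d by 1 substitution, G19A. Against the same reference miR-29b differs by 3 substitutions near the 3′ end, G18A, U21G and A22U. The sequence of miR-29e differs from that of miR-29b by the single substitution C6U, which lies in the seed, so that its seed differs from that of the other members.

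The array annotation, in cattle genome build UMD 3.1, places the family in adjacent pairs. The 20-base probe of miR-29a maps to chromosome 4 from 95402363 to 95402381, and 364 bases away on the same chromosome lies a copy of miR-29b, from 95402746 to 95402766. The second copy of miR-29b maps to chromosome 16 from 77478086 to 77478106, and miR-29c lies 540 bases from it, from 77478647 to 77478667. Both copies give the same mature sequence, and their signals cannot be separated. The last pair, miR-29e (from 77562054 to 77562073) and miR-29d (from 77562594 to 77562612), sits 83386 bases from miR-29c on the same chromosome, with 520 bases between the 2 probes. The annotation places the 20-base probe of the earlier entry miR-29b_v12.0 at neither copy of miR-29b, but on chromosome 16 from 73886713 to 73886731. Some annotated spans are 1 base shorter than the probe. In RefSeq's gene table for ARS-UCD2.0, which matched 6 miR-29 genes, MIR29A and MIR29B-1 lie within the long non-coding RNA LOC107131356 between the coding genes KLF14 and MKLN1. In the same table MIR29B-2 and MIR29C lie between CD34 and CD46, and MIR29E and MIR29D within the coding gene LOC518224.

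Each animal had its own single-colour Agilent array with 45780 spots of miRNA probes, of which 28.2% to 35.2% were well above background and none was saturated. The arrays lay on 1 slide, where 1 position index was the same for all arrays of a breed and differed between breeds, so that slide position and breed are confounded and cannot be told apart. The other position index equalled the replicate number in both breeds. The Limousin arrays were also brighter. The 75th percentile of the signals of probes detected on all 8 arrays was 557 to 631 intensity units on 3 Holstein-Friesian arrays and 939 on replicate 3, against 943 on Limousin replicate 3 and 1177 to 1579 on the other 3. All signals below were divided by this percentile, relative to its mean over arrays, unless they are called unscaled. In a principal component analysis of the 269 miRNAs tested, Holstein-Friesian replicate 2 stood apart on the second component, at -6.40 against -0.04 to 2.18 for the other 7 arrays, and values without it are given below. Precision is limited by the number of arrays.

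Of the 5 members, miR-29a, miR-29b and miR-29c were detected on all 8 arrays, miR-29d only on the 4 Limousin arrays and miR-29e on none. A probe counted as detected where over 50% of its spots, at most 30, were well above background. The miRNA miR-29a, the member with its gene on chromosome 4 alone, had scaled signals of 5306, 3719, 6709.5 and 5046 in Holstein-Friesian replicates 1 to 4 and of 8338, 6958, 7351 and 8342 in Limousin replicates 1 to 4. The lowest Limousin value lay just above the highest Holstein-Friesian value, that of replicate 3. The signals of miR-29b, encoded in both clusters, were 1362, 1149, 1937 and 1740.4 in Holstein-Friesian and 2882, 3024, 2098 and 2926 in Limousin. Here the breeds again did not overlap, with Limousin replicate 3 well under the other 3 and close to Holstein-Friesian replicate 3. For miR-29c the signals were 1465, 1273.5, 2129.8 and 1634 in Holstein-Friesian and 2686.5, 2389.6, 2208 and 2952 in Limousin. The gap between the breeds was again narrow and lay between the replicates numbered 3. Holstein-Friesian replicate 2 was the lowest of all 8 arrays for each of these 3 members, and replicate 3 the highest of its breed. The SD over animals ran from 0.28 to 0.37 on the log2 scale in Holstein-Friesian and from 0.13 to 0.27 in Limousin over the 6 probes of these members, while the spots of a probe on 1 array varied with a median coefficient of variation of 4.02% to 6.33%.

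**Figure D1:**
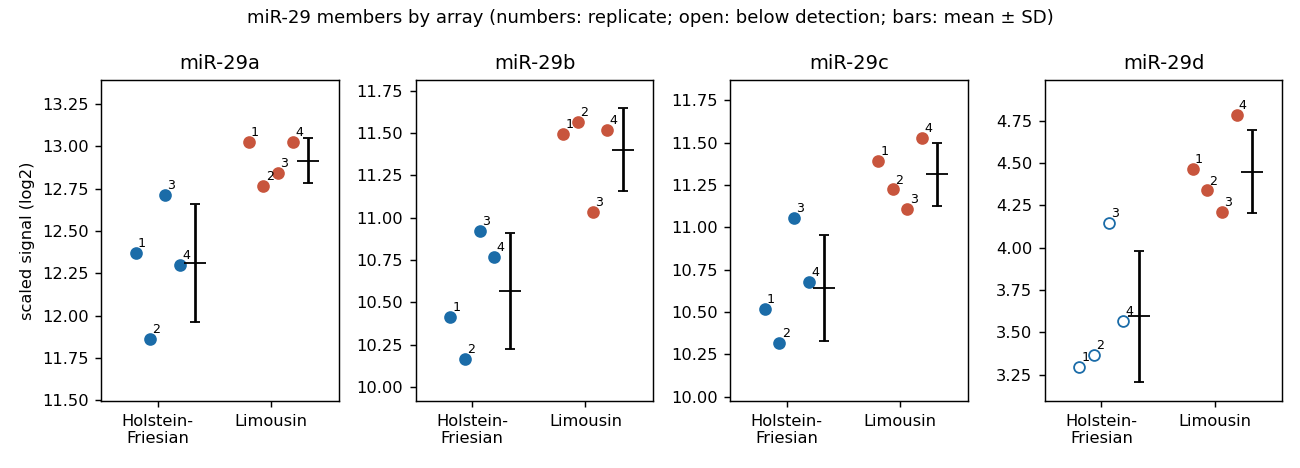
Scaled log2 signal of the brightest probe of each member on every array, with the replicate number beside each point and the mean ± SD (n = 4) beside each breed; each panel has its own axis of equal length, and open points are arrays on which the probe was not detected. The 2 breeds do not overlap in any panel, and in all panels but that of miR-29a the replicates numbered 3 lie next to each other across the gap. All Holstein-Friesian points of miR-29d are below detection, and no direction is read for it.

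The 3 members detected in both breeds rose in Limousin. The log2 signal of miR-29b averaged 11.40 ± 0.25 in Limousin, against 10.57 ± 0.34 in Holstein-Friesian (SD, n = 4 each), a 1.78-fold difference (95% confidence interval 1.34 to 2.38; limma adjusted p = 0.00736). For miR-29c the means were 11.31 ± 0.18 and 10.64 ± 0.31 (SD, n = 4 each), a 1.59-fold difference (1.23 to 2.06; limma adjusted p = 0.0115). For miR-29a they were 12.92 ± 0.13 and 12.31 ± 0.35 (SD, n = 4 each), a 1.52-fold difference (1.17 to 1.98; limma adjusted p = 0.0193). These p-values were adjusted over all 269 tested miRNAs, of which 37, or 13.8%, were higher in Limousin and 76, or 28.3%, were lower. This balance depended on the scaling: 104 were higher and 30 lower with the 75th percentile taken over all probes, 56 and 45 with quantile normalization, 44 and 56 with Agilent's total signal, and 81 and 28 in the deposited table. The median over all tested miRNAs moved with it, from -0.07 to 0.26, 0.09, 0.01 and 0.25 on the log2 scale. The 3 members passed under each of these, with log2 differences of 0.93, 1.17 and 1.00 for miR-29a, miR-29b and miR-29c with the percentile over all probes. The groups did not overlap, with Limousin higher, for 16.0% of the tested miRNAs. Ordered by the log2 difference from the highest, miR-29b ranked 7, miR-29c 15 and miR-29a 17 among the 269, whose median was -0.07. Without Holstein-Friesian replicate 2 the log2 differences were 0.70, 0.56 and 0.45 for miR-29b, miR-29c and miR-29a, and all 3 still passed (limma adjusted p = 0.00589, 0.0124 and 0.0165). The call of miR-29a was lost without Limousin replicate 1 (limma adjusted p = 0.0584) and without Limousin replicate 4 (limma adjusted p = 0.0548).

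**Figure D2:**
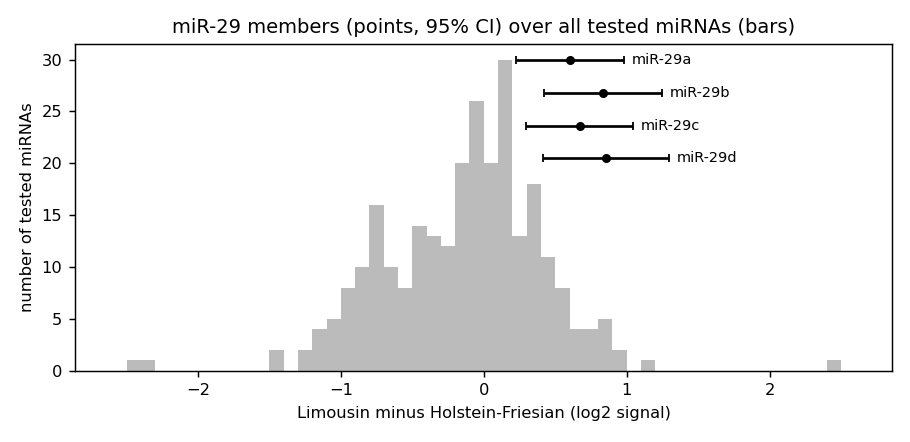
Log2 difference, Limousin minus Holstein-Friesian, of the 4 tested members (points with 95% confidence intervals, placed at arbitrary heights) over the distribution of all 269 tested miRNAs (bars, number per bin). The members miR-29a, miR-29b and miR-29c lie in the upper part of a distribution whose median is -0.07. The point of miR-29d is not read, since no Holstein-Friesian array detected it.

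The size of the rise moved with the brightness of the arrays. Without scaling the log2 differences were 1.46, 1.69 and 1.53 for miR-29a, miR-29b and miR-29c, beside a median of 0.79 over all tested miRNAs, and 63.9% of these were then higher in Limousin. Scaled signals of the members also followed brightness within Holstein-Friesian, where the dimmest array gave the lowest and the brightest array the highest value of each. In Limousin this held for miR-29b, at its lowest on the dimmest array and highest on the brightest, and for the lowest value of miR-29c, whereas miR-29a was lowest on the brightest array. The pair of arrays with nearly equal brightness, the replicates numbered 3, had unscaled signals of miR-29a of 6556 in Holstein-Friesian and 7211 in Limousin. The scaled log2 difference of this pair was 0.13 for miR-29a, 0.12 for miR-29b and 0.05 for miR-29c, beside a median of -0.08 over all tested miRNAs, each a comparison of single arrays. With array brightness as a covariate, a setting chosen after the data were seen, the log2 differences were 0.21 (SE 0.29), 0.18 (SE 0.25) and 0.19 (SE 0.26) for miR-29a, miR-29b and miR-29c, and no call held (limma adjusted p = 0.740 for each). The SE was 0.17 to 0.19 without the covariate, and brightness and breed run together over these arrays. Of all 269 miRNAs 1, miR-204, passed with the covariate (log2 difference 2.24), and 38 had an unadjusted p under 0.05.

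**Figure D3:**
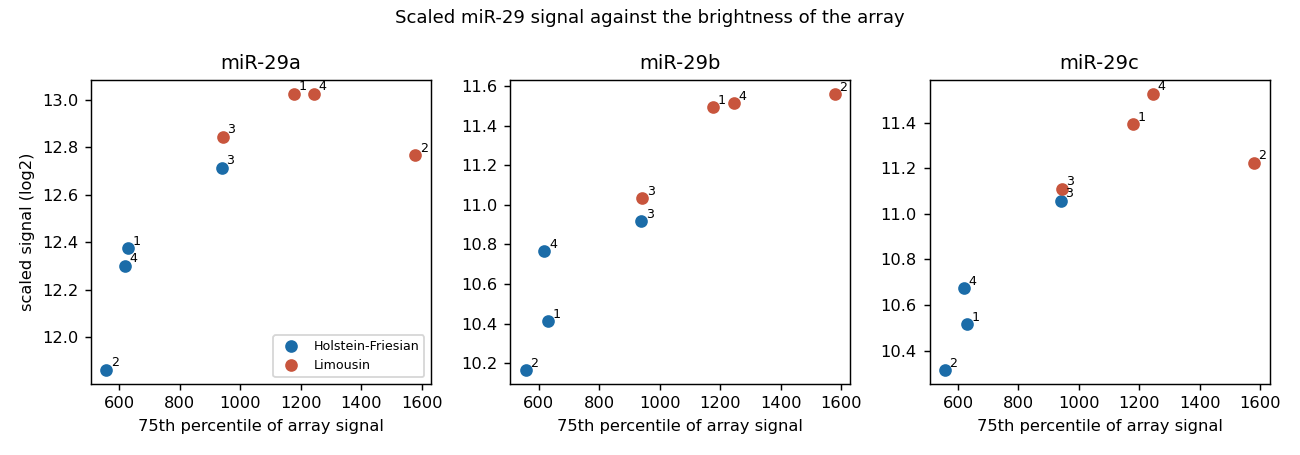
Scaled log2 signal of miR-29a, miR-29b and miR-29c on each array against the 75th percentile of that array's signal, in intensity units, with the replicate number beside each point. The replicates numbered 3 of both breeds share nearly the same brightness, 939 and 943, and lie close together in each panel.

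The composition of the probes touched the same calls. The probes that represent miR-29a, miR-29b and miR-29c hold 45.0%, 38.1% and 36.4% G and C and are 20, 21 and 22 bases long, against medians of 50% and 17 bases over the tested miRNAs. Fitted over these miRNAs, signal rose with probe length by 0.08 to 0.12 log2 per base on the Holstein-Friesian arrays and by 0.16 to 0.25 on the Limousin arrays. Once each array was corrected linearly for GC content and length, the log2 differences were 0.25, 0.35 and 0.08, and none passed (limma adjusted p = 0.307, 0.168 and 0.733). With this correction 9.67% of the tested miRNAs were higher in Limousin and 19.3% lower, and their median log2 difference was -0.14, against -0.07 without it.

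**Figure D4:**
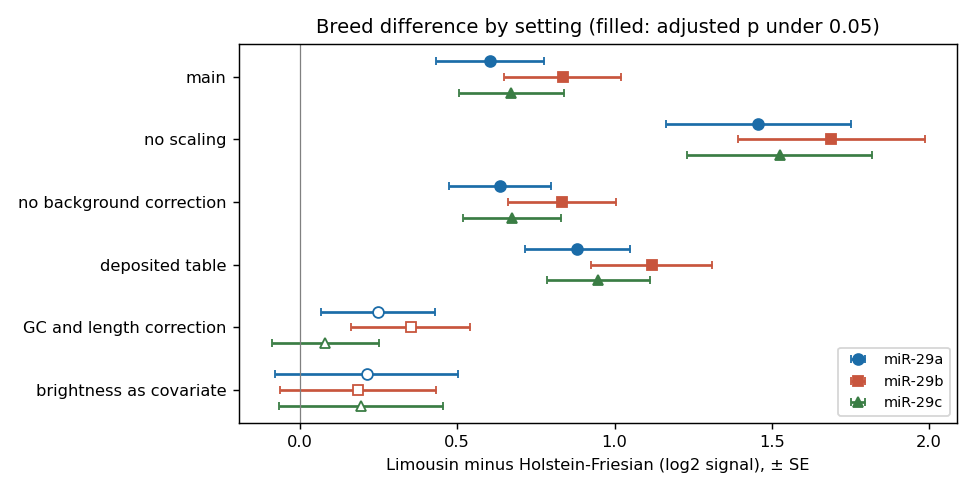
Log2 difference, Limousin minus Holstein-Friesian, with its SE for miR-29a, miR-29b and miR-29c under 6 settings; filled symbols passed limma at an adjusted p under 0.05. The differences stay above 0 in all 6, and passed in the upper 4 but neither with the GC and length correction nor with array brightness as a covariate.

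The separate probes of a member gave nearly equal breed differences under the percentile scaling. The 19-base probe of miR-29a ends at position 4 of the miRNA and the 20-base probe at position 3, and their log2 differences were 0.61 and 0.60. The probes of miR-29b, of 20 and 21 bases, gave 0.86 and 0.84, and those of miR-29c, of 21 and 22 bases, gave 0.67 and 0.67. All 6 probes passed in a limma fit over 492 probes, with adjusted p from 0.00679 to 0.0197, where 14.0% of probes were higher in Limousin. The difference between the 2 probes of a member varied over the 8 arrays by no more than 0.05 log2 for miR-29a, 0.09 for miR-29b and 0.10 for miR-29c. Its shift between breeds was -0.01, -0.02 and 0.00, which did not pass a two-sided exact permutation test (adjusted p over the 3 pairs 0.900, 0.857 and 1). Quantile normalization, which changes each array by more than a factor, set them further apart, at 0.56 and 0.79 for miR-29a, 0.96 and 0.81 for miR-29b and 0.73 and 0.70 for miR-29c, and all 6 still passed. Probes of a member share all but their last base, so they are repeated readings of the same RNA and not separate evidence.

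Whether the members rose by different amounts was asked within arrays, where a scaling by 1 factor per array cancels. The log2 difference between miR-29b and miR-29c was -0.07 ± 0.11 (SD, n = 4) in Holstein-Friesian and 0.09 ± 0.18 (SD, n = 4) in Limousin, a shift of 0.16 (two-sided exact permutation p = 0.171, adjusted over 6 pairs 0.300). For miR-29a against miR-29b the shift was -0.23 (exact permutation p = 0.20, adjusted 0.300), with values from -0.33 to -0.13 on leaving out any 1 array. For miR-29a against miR-29c it was -0.07 (exact permutation p = 0.457, adjusted 0.549), ranging from -0.11 to -0.01. With quantile normalization its sign turned, to 0.09. With 4 arrays a breed this test cannot give a p below 0.0286. None of these 3 shifts passed, and with this few arrays shifts of the sizes given could not be resolved. The 3 pairs with miR-29d are not read, since no Holstein-Friesian array detected it. The 2 genomic clusters could not be compared as units, since miR-29b comes from both.

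The member miR-29d was at the limit of detection. Its unscaled signal on the 20-base probe was 6.45, 5.98, 17.3 and 7.63 in Holstein-Friesian replicates 1 to 4 and 27.0, 33.2, 18.2 and 35.7 in Limousin replicates 1 to 4, where the negative control spots averaged between -1.43 and -0.23. Holstein-Friesian replicate 3, with 30% of its spots well above background, came near Limousin replicate 3, with 65.5%. The other probe, of 19 bases, was detected on no array and lay between -2.07 and 0.59. The fitted log2 difference of miR-29d was 0.86 (limma adjusted p = 0.00884), but none of the Holstein-Friesian arrays had it well above background, and the detection limit there allows no fold. With no background correction the sign turned (log2 difference -0.40, limma adjusted p = 0.0171), in a fit where 52.8% of the tested miRNAs were lower in Limousin, so that no direction can be given for miR-29d. The 3 probes of miR-29e lay between -2.08 and 0.58 on every array, which leaves miR-29e undetected at this sensitivity.

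The faint signal of miR-29d ran with those of miR-29b and miR-29c from array to array, and is described here without a test. The longest probes of each are shown, 5′ to 3′, with the base that pairs with position 19 in capitals, to set the weak reading beside the sequence it nearly shares.
miR-29c probe: taaCcgatttcaaatggtgcta
miR-29d probe: taaTcgatttcaaatggtgc
On the log2 scale the unscaled signal of miR-29d spanned 2.58 over the 8 arrays and that of miR-29c 2.41, while the difference between them spanned 0.48. Unscaled signals also carry the brightness of each array, which all probes share. Against miR-29b, which differs from miR-29d at 4 positions, the difference spanned 0.50, and against miR-29a, which differs at 2, it spanned 0.84. Between the bright members themselves the difference spanned 0.76 for miR-29a against miR-29b, 0.49 for miR-29b against miR-29c and 0.36 for miR-29a against miR-29c. Whether the miR-29d probe reads miR-29c was not tested.

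The earlier entry of miR-29b also ran with its relatives, an observation made after the data were seen and given as a description. The probes of miR-29b and miR-29b_v12.0 share 19 bases in a row, and the earlier entry has an extra base at its 5′ end, in capitals, opposite a base beyond the stretch that the miR-29b probe covers.
miR-29b probe: aacactgatttcaaatggtgc
miR-29b_v12.0 probe: Aaacactgatttcaaatggt
The unscaled signal of this 20-base probe was 6.09, 4.77, 11.7 and 7.52 in Holstein-Friesian replicates 1 to 4 and 23.6, 32.4, 13.8 and 21.8 in Limousin replicates 1 to 4. It was detected on Limousin replicates 1, 2 and 4 and on no other array. Its log2 signal spanned 2.76 over the arrays and that of the 21-base probe of miR-29b 2.90, and the difference between them spanned 0.31. The difference between the earlier entry and miR-29c spanned 0.55 and that against miR-29a 0.70.

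**Figure D5:**
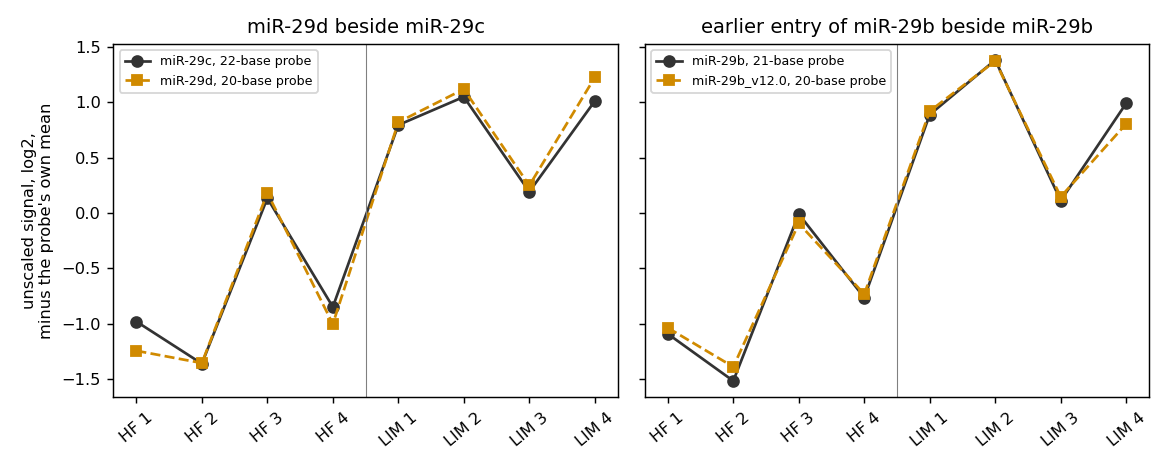
Unscaled log2 signal on each of the 8 arrays (HF, Holstein-Friesian; LIM, Limousin; the number is the replicate), each probe centred on its own mean, for miR-29d (20-base probe) beside miR-29c (22 bases) and for miR-29b_v12.0 (20 bases) beside miR-29b (21 bases). The paired lines run together from array to array, and the difference between them spans 0.48 in the left and 0.31 in the right panel. These unscaled signals also carry the brightness of each array, whose 75th percentile ran from 557 to 1579.

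Other miRNAs shared the pattern of the family over the 8 arrays. Likeness was measured as the root mean square (RMS) difference between log2 profiles, each centred on its own mean, and is a description of these arrays with no test. Among the other 268 tested miRNAs, the nearest to miR-29a was miR-29c, at 0.11, and the nearest to both miR-29b and miR-29c was again a family member, miR-29c at 0.15 and miR-29a at 0.11. The median over all tested miRNAs was 0.46, 0.55 and 0.48 for miR-29a, miR-29b and miR-29c. Outside the family the profiles nearest to miR-29a were those of miR-132 (RMS 0.12), miR-192 (0.19) and miR-26a (0.20). Those nearest to miR-29b were miR-155 (0.17), an immune cell miRNA, the older entry miR-218_v13.0 (0.18) and miR-192 (0.18). Those nearest to miR-29c were miR-192 (0.14), miR-101 (0.15) and miR-142-5p (0.15), the last a miRNA of blood cells. The faint miR-29d, at 0.137 from miR-29c, ranked 3 there, after miR-192 at 0.136. It ranked 5 for miR-29b and 13 for miR-29a. The signals of miR-192 and miR-132 were detected on 0 and 1 of the 4 Holstein-Friesian arrays, so their profiles rest partly on faint values. Both, like miR-29d, passed the detection filter through Limousin alone, where their signals were higher. Each profile spans both breeds and so carries the breed difference, and the likeness of these miRNAs to the family is not read further.

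Other miRNAs tied to matrix and scarring in mammals were counted over the entries detected on all 8 arrays, and only with the percentile of probes detected on all 8 arrays. Of 7 such entries known to promote scarring or matrix build-up, 5 rose in Limousin and 0 fell, with a median log2 difference of 0.47 and all 7 differences above 0. Of 17 known to restrain matrix genes or TGF-beta signalling, 1 rose, 2 fell and 14 did not pass, with a median of 0.10. Over all 232 miRNAs detected on every array 12.9% were higher and 28.0% lower, with a median of -0.06. The 5 that rose include miR-199b and both arms of miR-199a, so they are not 5 separate readings. Both lists were chosen with earlier results of these data known. The smallest p of the tested entries belonged to miR-155, which promotes inflammation, with a log2 difference of 0.95 (SE 0.13; limma adjusted p = 0.00119). Next came miR-192, a TGF-beta responsive miRNA of the kidney in mice. It was detected on 0 Holstein-Friesian arrays and passed the detection filter through Limousin alone, so its p is not read. After it came miR-101, a repressor of the histone methyltransferase EZH2, at 0.76 (SE 0.14, limma adjusted p = 0.00360). With the GC and length correction 1 of the 7 rose, and of the 17 entries 2 rose and 1 fell.

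Marker miRNAs of the cell types that the gland can hold were read in the same way. Beside their counts, 12.9% of all 232 miRNAs detected on every array were higher in Limousin and 28.0% lower. Each list holds few entries. Of 6 epithelial entries detected on every array 0 rose and 0 fell by limma, and 0 had an unadjusted p under 0.05, with summed scaled signals of 17792 to 19968 in Holstein-Friesian and 18822 to 20644 in Limousin. Among them miR-200b, which guards the epithelial state, had log2 signals of 12.63 ± 0.11 and 12.59 ± 0.11 (SD, n = 4 each). A further epithelial entry, miR-375, was detected on 0 Holstein-Friesian and 4 Limousin arrays. Of 6 stromal fibroblast entries 3 rose, miR-199b and both arms of miR-199a, and the sum was 9849 to 10573 in Holstein-Friesian and 10366 to 12320 in Limousin. Their brightest, miR-145 of contractile cells, did not pass, at a log2 difference of -0.23 (limma adjusted p = 0.0912). With the GC and length correction 0 stromal entries rose, and miR-145 was then lower in Limousin, at -0.37 (limma adjusted p = 0.0169). The stromal entries that rose also stand in the scarring list, and so does miR-155 of the leukocyte list.

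Of 4 leukocyte entries 2 rose, beside 12.9% higher over all miRNAs detected on every array. The sum of the 4 was 1026 to 1539 in Holstein-Friesian against 1477 to 1895 in Limousin, while miR-142-3p and miR-146a were detected on no array. The brightest, miR-142-5p, had a log2 rise of 0.56 (limma adjusted p = 0.0222), which was 0.16 with the GC and length correction (limma adjusted p = 0.348). The other entry that rose, miR-155, was at 0.82 with that correction (limma adjusted p = 0.00255). Of the rest, miR-223 lay at -0.15 and miR-150 at 0.02 without it, and neither passed. The sum of 3 adipocyte entries, which depends on the scaling of the arrays, was lower in Limousin under the scaling used, 1485.0 to 1618 against 1798 to 2062. Of these 3, 2 fell, beside 28.0% lower over all miRNAs detected on every array, and 1 held with the GC and length correction. The brightest, miR-193a-3p, was at -0.21 (limma adjusted p = 0.167). The sum of 3 vessel entries, 2772 to 3555 against 3212 to 4053, overlapped between breeds, and miR-486 was detected nowhere. Of these 3, miR-126-3p of endothelial cells was at 0.20 (limma adjusted p = 0.230) and miR-126-5p at 0.41 (limma adjusted p = 0.0779). The third, miR-451, went the other way, at -0.35 (limma adjusted p = 0.544), and none passed. Of the 4 skeletal muscle entries miR-1 was detected on 2 Holstein-Friesian and 4 Limousin arrays, at summed signals of 20.0 to 34.0 against 18.0 to 46.7, miR-133a on 1 array, miR-133b on 3 and miR-206 on none. The part of tissue makeup in the miR-29 difference was not tested.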

How the data were processed

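The scanner output came from Agilent Feature Extraction 10.10.1.1 per the file headers. The deposited spot intensity was already corrected for a fitted spatial background but not scaled between arrays. The 0 or 1 flags per spot (other values) are the authors' software output, per the file headers. The deposited value table holds log2 values that equal, by comparison with the scanner files, the log2 total signal per miRNA minus a constant per array. It served as an alternative only.

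Spots of a probe were averaged after control spots and outlier flags had been removed. Signals were scaled to the 75th percentile of the probes detected on all 8 arrays, set to at least 1 and taken as log2. The probe with the highest mean stood for its miRNA. Tests used limma 3.58.1 (lmFit, eBayes; R 4.3.3) on the 269 miRNAs that all 4 arrays of either breed detected, Limousin minus Holstein-Friesian, with Benjamini-Hochberg adjustment at 0.05. The fit was tested on simulated data with independent noise for each miRNA and array. These held no effect of array brightness, probe composition or slide position, so the simulation cannot speak to those. Shifts between 2 members or 2 probes were tested with exact permutation over 70 splits. By the labels, replicates within a breed are biological.

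Named were all members and their probes, the 3 nearest profiles outside the family for each member detected on all arrays, the 3 smallest p of the matrix lists, and the brightest entry of each tissue list. Entries at or below detection, and list members beyond these, were chosen for naming with their values in view. The members and lists were chosen with earlier results of these data known.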

Additional observations from a re-analysis of the deposited data

Results flagged for a closer look

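Limousin replicate 3 lay apart from the other 3 Limousin arrays for miR-29b on both probes, at log2 signals of 9.26 on the 20-base and 11.04 on the 21-base probe. The gap to the nearest array exceeded Dixon's 95% limit for 4 samples, with ratios of 0.865 and 0.868. Chance flags about 1 in 20 groups, 13 groups of 4 were examined, and the 2 probes read the same RNA. Limousin replicate 3 was also the dimmest Limousin array, and without it the log2 difference of miR-29b was 0.96.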

How the results depend on the processing

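The positive differences of miR-29a, miR-29b and miR-29c held their direction under all alternatives, and passed under every scaling, background, floor, probe summary and variance model tried and with the deposited table. Calls ended with the GC content and length correction, alone (miR-29a 0.25, miR-29b 0.35, miR-29c 0.081, miR-29d 0.46) or with the replicate block, which leaves these values as they are (adjusted p = 0.227, 0.220, 0.704 and 0.0882), and with array brightness as a covariate (0.21, 0.18, 0.19 and 0.27). With no filter on dim miRNAs, which adds tests, miR-29a (0.60), miR-29c (0.67) and miR-29d (0.86) no longer passed (adjusted p = 0.0795, 0.0585 and 0.0565), while miR-29b did (0.0481). Leaving out 1 array gave 0.45 to 0.74 for miR-29a, 0.70 to 0.96 for miR-29b, 0.56 to 0.81 for miR-29c and 0.74 to 1.04 for miR-29d. The difference of miR-29d and of its 20-base probe turned to -0.40 without background correction, -0.44 with normexp and -0.26 with the floor at the lowest detected signal, and was 5.06 in the deposited table, where miR-29d had the code of undetected miRNAs, -8.84 to -8.53, on 3 Holstein-Friesian arrays and -2.70 on replicate 3.

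Of all tested miRNAs 113 passed (37 higher, 76 lower), 174 without scaling (172 and 2), 171 with normexp (26 and 145), 169 with no background correction (27 and 142), 60 with the replicate block and the GC correction, 1 with the brightness covariate, and 71 to 143 when 1 array was left out (71 without Limousin replicate 1, 73 without Holstein-Friesian replicate 4). The splits under the other scalings are given with the breed comparison.

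Shifts between members, none of which passed, turned sign in these cases. The shift of miR-29a against miR-29c was 0.17 after the GC correction and 0.086 with quantile normalization, an alternative added for shifts after the data were seen. Against miR-29d, whose shifts are not read because no Holstein-Friesian array detected it, with no background correction, normexp, the higher floor and the mean of all probes in turn, miR-29a gave 1.04, 1.08, 0.87 and 0.18, miR-29b 1.24, 1.27, 1.1 and 0.42, and miR-29c 1.08, 1.11, 0.93 and 0.24. The shift of miR-29b against miR-29d, -0.02, ran from -0.11 to 0.057 without 1 array. Between the probes of a member the shift turned to 0.0090 and 0.012 (miR-29a) and to 0.079 and 0.10 (miR-29b) with no background correction and normexp, and to -0.091 (miR-29c) after the GC correction, and with quantile normalization to 0.23 (miR-29a) and -0.026 (miR-29c). Without 1 array it ran from -0.012 to 0.0020 for miR-29a and from -0.010 to 0.022 for miR-29c. The cause was not tested.

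Replicate numbers 1 to 4 are shared by the breeds and equal the other position index of the array on the slide. The deviations of same-numbered arrays correlated at -0.305, -0.246, -0.453 and 0.314 over 269 miRNAs. Whether that shared position affected the signals was not tested. With the replicate block alone miR-29a, miR-29b and miR-29c passed (adjusted p = 0.0279, 0.0175 and 0.0257). Arrays give no read depth, and miR-29d and miR-29e are limited by signal over background.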
